A study of Rattus norvegicus with 18 samples.

Results

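The heat shock and oxidative stress genes described here were 10 genes chosen by name: the chaperones Hspb1, Cryab, Hspa5, Hspa8 and Hsp90aa1 and the redox genes Hmox1, Nqo1, Txnrd1, Gclc and Sod2. Their probes were found by the gene symbol that the platform annotation, or else a RefSeq accession, gave them. In this way 14 probes named 9 of the 10 members, out of 12344 genes named on the array, and no probe was assigned to Hsp90aa1. All 14 member probes were tested. Expression was measured in total RNA of the whole hippocampus of male adult Wistar rats on 1-colour CodeLink whole genome arrays, with 18 arrays in all. The rats of 3 groups had received scopolamine methylnitrate, which limits peripheral cholinergic effects, and then pilocarpine, a muscarinic agonist that sets off status epilepticus (SE), and diazepam ended the seizures. One group was examined 3 days after SE (D3, n = 5), another at 7 days (D7, n = 5), and the last soon after its first spontaneous seizure (Chronic, n = 5). The 3 control rats had received saline, 1 for each of these times, and were taken as 1 group (Control, n = 3). In this model the hippocampus is read whole, so that a change in the number of cells of a type and a change in the RNA of each cell cannot be told apart.

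Cells under stress raise several sets of protective genes. Heat shock proteins are chaperones that hold or refold damaged proteins, and their transcription is driven by heat shock factors that bind heat shock elements. The endoplasmic reticulum (ER) has its own unfolded protein response, with Hspa5 (BiP) as its main chaperone. The factor NRF2 binds antioxidant response elements and drives genes for heme breakdown, quinone reduction, thioredoxin and glutathione, among them Hmox1, Nqo1, Txnrd1 and Gclc. In the brain after SE, Hspb1 is known mainly as a gene of reactive astrocytes and Hmox1 as a gene of glia and macrophages.

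Promoter sequence was looked up for the members in RefSeq (GRCr8), as windows from 250 bases before to 50 bases after the start of the gene, and was listed for 7 of them. The windows of Hspb1, Hspa8 and Hspa5 are shown because they hold the element of their own pathway while the 3 genes differed in the measurements below, and that of Bag3, a cochaperone of Hspb1-family and HSP70 proteins, because it changed as well. They lie at chr12:26432252-26432551 on the minus strand (Hspb1), chr8:50080264-50080563 on the plus strand (Hspa8), chr3:38452766-38453065 on the plus strand (Hspa5) and chr1:192533210-192533509 on the plus strand (Bag3), all written 5′ to 3′ along the gene. Capitals mark the motifs searched on both strands, which were the heat shock element of 2 units (GAANNTTC or TTCNNGAA), that of 3 units (GAANNTTCNNGAA or TTCNNGAANNTTC), the antioxidant response element (TGACNNNGC) and the ER stress element (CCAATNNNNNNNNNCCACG).
Hspb1: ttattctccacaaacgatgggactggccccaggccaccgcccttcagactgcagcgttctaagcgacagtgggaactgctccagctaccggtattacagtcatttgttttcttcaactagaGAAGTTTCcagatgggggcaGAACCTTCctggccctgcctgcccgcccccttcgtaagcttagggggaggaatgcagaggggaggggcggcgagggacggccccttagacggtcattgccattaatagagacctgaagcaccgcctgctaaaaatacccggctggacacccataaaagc
Bag3: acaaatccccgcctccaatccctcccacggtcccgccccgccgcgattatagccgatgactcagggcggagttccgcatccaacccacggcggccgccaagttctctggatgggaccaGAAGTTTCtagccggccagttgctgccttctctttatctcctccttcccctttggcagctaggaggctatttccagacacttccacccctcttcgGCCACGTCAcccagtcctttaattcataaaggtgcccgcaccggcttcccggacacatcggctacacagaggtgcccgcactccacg
Hspa8: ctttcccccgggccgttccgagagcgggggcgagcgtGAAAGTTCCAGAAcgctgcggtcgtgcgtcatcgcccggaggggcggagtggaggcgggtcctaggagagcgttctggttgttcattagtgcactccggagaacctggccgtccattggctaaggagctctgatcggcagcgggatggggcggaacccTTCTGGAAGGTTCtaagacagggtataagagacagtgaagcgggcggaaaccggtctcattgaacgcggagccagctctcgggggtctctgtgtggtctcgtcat
Hspa5: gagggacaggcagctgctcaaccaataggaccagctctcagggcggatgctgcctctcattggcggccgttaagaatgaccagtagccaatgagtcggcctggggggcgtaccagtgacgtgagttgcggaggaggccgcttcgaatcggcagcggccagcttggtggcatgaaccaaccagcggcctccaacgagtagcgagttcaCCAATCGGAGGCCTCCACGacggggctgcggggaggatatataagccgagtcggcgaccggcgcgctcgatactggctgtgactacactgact
Hspb1 held 2 heat shock elements of 2 units and Bag3 held 1, a motif that occurred in 15.9% of all 33469 promoters listed. Hspa8 held 2 elements of 3 units, each of which contains overlapping elements of 2 units, against 0.798% of all promoters. Hspa5 held 1 ER stress element, against 0.0657% of all promoters. The second capital run of Bag3 is an antioxidant response element, which 12.1% of all promoters held. In the windows of Nqo1 and Gclc none of the 4 motifs was found, while Sod2 and 1 of the 2 windows of Txnrd1 held 1 antioxidant response element. A match is a description of letters and not evidence of binding.

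The arrays were alike in quality, with 66.0% to 76.0% of spots flagged good. Each array correlated with the others of its group at a median r of 0.951 (D7 replicate 33) to 0.968 over all probes. Summed intensities of 12 microglia and macrophage markers ran from 90.9 to 104.6 in Control, 300.2 to 369.7 in the D3 group, 211 to 592 in D7 and 192 to 363 in Chronic, and 9, 11 and 9 of the 12 were called higher than Control. Those of 8 neuronal markers ran from 208 to 222 in Control, 104 to 136 in the D3 group, 95.8 to 168 in D7 and 116 to 175 in Chronic, with 2 of the 8 called lower at D3 and none later (5 at D7 and 4 in Chronic at an unadjusted limma p under 0.05, and 0 by the methods' t-test at 2-fold). Of 11 astrocyte markers, 2 (Gfap and Vim) were called higher at each time, and the sums ran from 446 to 449 in Control, 607 to 628 in the D3 group, 546 to 585 in D7 and 355 to 521 in Chronic. Of all named genes, 5.09%, 3.8% and 2.87% were called higher at D3, D7 and Chronic, and 0.973%, 0.487% and 0.673% lower. The part of astrocytes in the results below was not tested. Markers of choroid plexus and ependyma varied within every group, with sums from 17.6 to 362 over the 18 arrays. One array, Chronic replicate 45, stood apart in Hspb1 and Hmox1, and the results that rest on it are given with and without it.

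Hspb1, Hmox1 and Nqo1 were the members that rose. At D3, 3 of the 9 measured members were called higher than Control and none lower, where 3.42% of all 33800 probes tested were called higher and 1.17% lower. A call here and below means an adjusted p under 0.05 in limma, with Benjamini-Hochberg adjustment over all probes, and a difference of at least 2-fold. At D7, 2 of 9 were higher (3.06% of all probes) and none lower (0.432%), and in Chronic 2 of 9 were higher (2.28%) and none lower (0.612%). The members were counted at 1 probe per gene. Over all named genes counted in that way, 5.09%, 3.8% and 2.87% were called higher at D3, D7 and Chronic, and 0.973%, 0.487% and 0.673% lower. With each array scaled at its percentile 75 in place of the authors' constant, 969 probes were called higher and 121 lower in Chronic, against 770 and 207, and the same number of members was called. The median log2 fold change of the 9 members was 0.49 at D3, 0.34 at D7 and 0.30 in Chronic. Beside it stood -0.12, -0.06 and -0.08 over all probes and -0.10, -0.12 and -0.12 over all named genes. At an unadjusted limma p under 0.05, 5, 4 and 4 of the 9 lay higher and 0, 0 and 1 lower. These counts take Sod2 by its brightest probe, while its dimmer probes lay lower at D3 and D7 at that threshold. The share of all genes at an unadjusted p was not counted, here or for any list. The 3 comparisons share the same 3 control arrays.

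**Figure D1:**
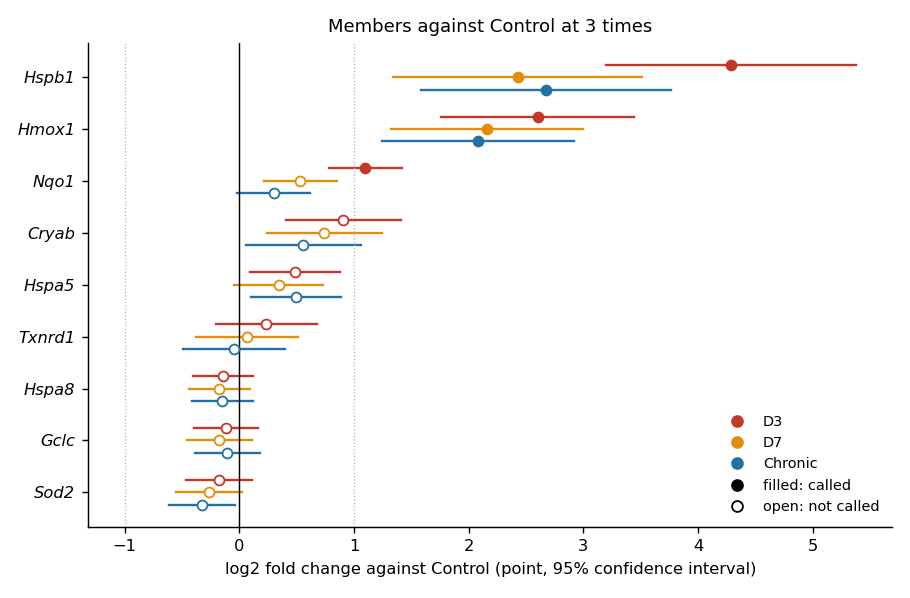
Log2 fold change against Control (horizontal axis) of the 9 measured members at D3, D7 and Chronic, as points with 95% confidence intervals from limma; filled points were called, and dotted lines mark 2-fold. Hspb1 lies farthest to the right at each time, from 2.43 to 4.29, Hmox1 lies between 2.08 and 2.60, and the intervals of Hspa8 and Gclc include 0 at all 3 times.

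Hspb1 encodes HSP27, a small heat shock protein that binds unfolding proteins and actin. Its normalized intensity was 2.81, 1.76 and 3.00 in the 3 Control arrays. At D3 it was 67.4, 49.6, 31.7, 55.3 and 43.2, and at D7 22.0, 14.5, 17.5, 6.88 and 10.4. In Chronic it was 15.3, 11.1, 6.64, 11.3 and 74.7. Every array of the 3 pilocarpine groups lay above every Control array, and every D3 array above every D7 array. The 74.7 was Chronic replicate 45, the highest of the 18 arrays, while the other 4 Chronic arrays lay at or below 15.3. The log2 fold change against Control was 4.29 ± 0.52 (SE) at D3, which is 19.5-fold (limma adjusted p = 2.79e-05). It was 2.43 ± 0.52 at D7, or 5.37-fold (limma adjusted p = 0.00468), and 2.67 ± 0.52 in Chronic, or 6.38-fold (limma adjusted p = 0.00332).

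Between the times, 0 of 9 members were called at D7 against D3 (0.322% of all probes, either direction), 0 in Chronic against D3 (0.743%) and 0 in Chronic against D7 (0.0503%). At an unadjusted p under 0.05 these were 2, 2 and 0 of the 9, Hspb1 and Nqo1 in both cases. The log2 difference of Hspb1 at D7 from D3 was -1.86 ± 0.45, with a limma adjusted p of 0.0561 that missed the threshold, although the groups did not overlap. Without Chronic replicate 45, which enters the shared estimate of the spread, the same difference had a limma adjusted p of 0.00300. The log2 difference of Chronic from D3 was -1.61 ± 0.45 (limma adjusted p = 0.0615) with all arrays and -2.17 (limma adjusted p = 0.000345) without that array. Without it, Hspb1 in Chronic still exceeded Control by 2.11 on the log2 scale (limma adjusted p = 0.00162). In the order of mean log2 levels, D3, Chronic, D7 and Control, Chronic and D7 did not differ beyond their spread (log2 difference 0.25 ± 0.45, limma adjusted p = 0.905; -0.31 without replicate 45).

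**Figure D2:**
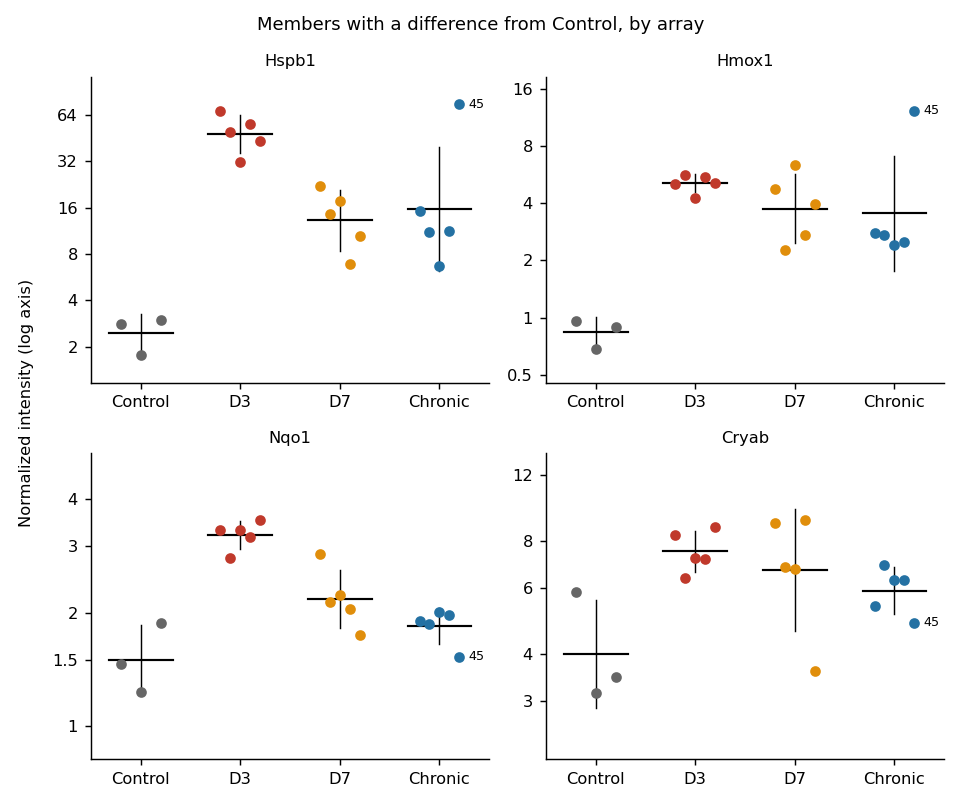
Normalized intensity (vertical axes, log scale) of Hspb1, Hmox1, Nqo1 and Cryab on each of the 18 arrays by group; each point is 1 rat, horizontal lines are the means of the log2 values and vertical lines span 1 SD on either side. For Hspb1 and Hmox1 all pilocarpine arrays lie above all Control arrays, and Chronic replicate 45 (marked 45) lies at 74.7 and 12.3, apart from its group.

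Cryab encodes alpha B-crystallin, a small heat shock protein that forms mixed complexes with Hspb1. Control arrays read 5.86, 3.16 and 3.48 in normalized intensity. The 5 D3 arrays read 8.32, 6.39, 7.21, 7.16 and 8.70. The D7 arrays read 8.94, 6.82, 6.74, 9.12 and 3.60, and those of Chronic 5.38, 6.92, 6.30, 6.30 and 4.85. The D3 arrays all lay above the Control arrays, while 1 D7 array lay among them and the Chronic arrays overlapped with Control replicate 26. The log2 fold change was 0.91 ± 0.24 at D3 (limma adjusted p = 0.0105), 0.74 ± 0.24 at D7 (limma adjusted p = 0.0375) and 0.56 ± 0.24 in Chronic (limma adjusted p = 0.123), each under 2-fold and so not called. This value hung on the high Control array: without Control replicate 26 the log2 fold change was 1.18 at D3 and 1.02 at D7, both called, and without Control replicate 36 it was 0.73 at D3 with a limma adjusted p of 0.0768.

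Of the small heat shock protein list, 8 of 10 genes were measured, and 2 rose at D3, Hspb1 and Hspb2 (for all named genes, 5.09% were called higher and 0.973% lower at D3). Hspb2, which lies beside Cryab in the genome and is known mainly from muscle, had a log2 fold change of 1.06 ± 0.30 at D3 (limma adjusted p = 0.0154). That call was lost without Control replicate 26 (0.92), Control replicate 36 (0.93) or D3 replicate 15 (0.99). At D7 and in Chronic 1 of the 8 rose, Hspb1, beside 3.8% and 2.87% of all named genes called higher. The median log2 fold change of the 8 was 0.52, 0.24 and 0.24 at D3, D7 and Chronic.

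Hspa8 encodes the constitutive HSC70, which folds new proteins and strips clathrin from vesicles, and it was level across the groups. Normalized intensities ranged from 78.0 to 116 in Control, and from 81.9 to 98.8, 73.9 to 99.6 and 77.7 to 95.3 in D3, D7 and Chronic. The groups overlapped at each time. The log2 fold change was -0.14, -0.17 and -0.15 at D3, D7 and Chronic (SE 0.13 each), with 95% confidence intervals from -0.44 to 0.12 in all, and after quantile normalization it turned to 0.16, 0.07 and 0.11. In the HSP70 family, 12 of 15 listed genes were measured and 1 rose, Hspa2, a testis-rich HSP70 that the brain also expresses, by 1.27 ± 0.21 on the log2 scale at D3 (limma adjusted p = 0.000324). It read 1.90 to 2.55 in Control and 5.12 to 5.91 at D3. At D7 and in Chronic 0 of the 12 were called, and 5.09%, 3.8% and 2.87% of all named genes were called higher at the 3 times. No share of all genes was counted at an unadjusted limma p under 0.05. At that threshold, 2, 1 and 2 of the 12 lay above Control and 3, 5 and 3 below it. Their median log2 fold change was -0.09, -0.17 and -0.10, beside -0.10, -0.12 and -0.12 over all named genes. The inducible Hspa1a and Hspa1b were not named here, since their probe carries more than 1 gene symbol.

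Of the 29 genes of the HSP90 family and its cochaperones, 26 were measured. At an unadjusted limma p under 0.05, those above Control numbered 2, 1 and 1 at D3, D7 and Chronic, and those below it 9, 11 and 9. By the stricter call, 5.09%, 3.8% and 2.87% of all named genes were higher and 0.973%, 0.487% and 0.673% lower at these times. These shares cannot be set against the counts at an unadjusted p. No share of all genes was counted at the threshold used for the 26. Only Bag3 among them was called, with a log2 fold change of 1.12 ± 0.33 at D3 (limma adjusted p = 0.0197) and 1.41 ± 0.33 in Chronic (limma adjusted p = 0.00899). Bag3 couples small heat shock proteins to HSP70 for selective autophagy. It read 3.91 to 6.32 in Control, 9.55 to 11.1, 5.54 to 13.8 and 6.71 to 26.3 in D3, D7 and Chronic, where the highest value was again replicate 45. The D3 call was lost without Control replicate 36 (limma adjusted p = 0.0774) or 47 (limma adjusted p = 0.0850). The median of the 26 was -0.20, -0.21 and -0.23 at D3, D7 and Chronic, beside -0.10, -0.12 and -0.12 over all named genes. Hsp90ab1, the constitutive HSP90, had log2 fold changes of -0.25, -0.28 and -0.28 with limma adjusted p-values of 0.122, 0.0893 and 0.102.

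Hspa5 encodes BiP, the HSP70 of the ER lumen. Its normalized intensity ranged from 13.97 to 26.3 in Control, and from 25.2 to 31.4, 22.0 to 29.8 and 19.2 to 35.3 in D3, D7 and Chronic. Control replicate 26 lay within each pilocarpine group, so the groups overlapped. The log2 fold change was 0.49 ± 0.19 at D3 (limma adjusted p = 0.0677), then 0.34 ± 0.19 at D7 (limma adjusted p = 0.213) and 0.49 ± 0.19 in Chronic (limma adjusted p = 0.0805), none called. Of 24 measured genes of the unfolded protein response, 2 were called higher at D3, and 1 each at D7 and Chronic, beside 5.09%, 3.8% and 2.87% of all named genes. Sdf2l1, a cofactor of BiP, rose at all 3 times by 1.41, 1.36 and 1.22 on the log2 scale (limma adjusted p = 0.00441, 0.00884 and 0.0175), the last of which was lost without Control replicate 36 (limma adjusted p = 0.0805) or 47 (limma adjusted p = 0.0735). P4hb, a protein disulfide isomerase, rose at D3 by 1.02 ± 0.14 (limma adjusted p = 6.87e-05), a value just past 2-fold that fell short of it without Control replicate 26 (0.94), Control replicate 36 (0.98) or D3 replicate 11 (0.99).

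Hmox1 encodes heme oxygenase-1, which breaks heme down to biliverdin, iron and carbon monoxide. Control arrays read 0.965, 0.683 and 0.895 in normalized intensity. The 5 D3 arrays read 5.07, 5.65, 4.25, 5.49 and 5.11. The D7 arrays read 4.75, 2.27, 6.38, 2.72 and 3.94, and those of Chronic 2.79, 2.71, 2.41, 2.50 and 12.3. All 15 pilocarpine arrays lay above all Control arrays. The Chronic arrays lay close together apart from replicate 45. The log2 fold change was 2.60 ± 0.40 at D3, or 6.07-fold (limma adjusted p = 0.000217), 2.16 ± 0.40 at D7, or 4.47-fold (limma adjusted p = 0.00183), and 2.08 ± 0.40 in Chronic, or 4.23-fold (limma adjusted p = 0.00315). Without replicate 45 the log2 fold change in Chronic was 1.63 (limma adjusted p = 0.00117). D3 had the highest mean log2 level, followed by D7, Chronic and Control, and the 3 pilocarpine groups did not differ beyond their spread with all arrays (limma adjusted p = 0.643 for D7 against D3 and 0.484 for Chronic against D3). Without replicate 45, Hmox1 in Chronic differed from D3 by -0.97 on the log2 scale (limma adjusted p = 0.0155), just under 2-fold.

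At D7 and in Chronic, the calls of Hspb1 and Hmox1 rested on taking the 3 saline arrays as 1 group. Against the saline array of the same time alone, Hspb1 had a log2 fold change of 2.91 at D7 (limma adjusted p = 0.0710) and 2.39 in Chronic (limma adjusted p = 0.219). Hmox1 had 2.45 at D7 (limma adjusted p = 0.0530) and 1.99 in Chronic (limma adjusted p = 0.191). With 1 control array the fit takes its spread from the other groups and assumes that the lone array varies like them, so that a lost call here does not show a smaller difference. By this fit 0 of 9 members were called at D7 or in Chronic and 3 at D3.

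Nqo1 encodes a quinone reductase and is a standard readout of NRF2. In Control it read 1.47, 1.23 and 1.88 in normalized intensity. At D3 it read 3.31, 2.79, 3.31, 3.17 and 3.52, and at D7 2.86, 2.13, 2.23, 2.04 and 1.75. In Chronic it read 1.90, 1.87, 2.01, 1.97 and 1.53. The D3 arrays lay above all Control and all Chronic arrays, while those of D7 and Chronic overlapped with Control. The log2 fold change was 1.10 ± 0.15 at D3, or 2.14-fold (limma adjusted p = 8.27e-05), 0.53 ± 0.15 at D7 (limma adjusted p = 0.0215) and 0.30 ± 0.15 in Chronic (limma adjusted p = 0.199). Without Control replicate 36 the value at D3 was 0.95, under 2-fold (limma adjusted p = 0.00140). Nqo1 at D7 differed from D3 by -0.56 ± 0.13 on the log2 scale (limma adjusted p = 0.0455) and in Chronic by -0.80 ± 0.13 (limma adjusted p = 0.00187), both under 2-fold and so not called. In the order D3, D7, Chronic and Control, D7 and Chronic did not differ beyond their spread (limma adjusted p = 0.579), nor did Chronic and Control.

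Txnrd1 encodes cytosolic thioredoxin reductase and was read by 2 probes. Probe GE1280403, the brighter, had normalized intensities of 3.79 to 4.94 in Control and of 4.50 to 5.98, 3.84 to 5.89 and 2.39 to 6.23 in D3, D7 and Chronic, and its log2 fold change was 0.24, 0.07 and -0.05 (SE 0.21 each). Probe GE21487 lay between 0.153 and 0.610, near background, with D3 replicates 11 and 12 flagged low, and its log2 fold change at D3 was -0.56 ± 0.30 (limma adjusted p = 0.202). The groups overlapped on both probes and neither was called.

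Gclc encodes the catalytic subunit of glutamate-cysteine ligase, the first enzyme of glutathione synthesis, and was read by 3 probes. Probe GE1203046, the brightest, had normalized intensities of 4.34 to 5.12 in Control and of 3.88 to 4.75, 3.48 to 5.02 and 3.58 to 5.22 in D3, D7 and Chronic. Its log2 fold change was -0.12, -0.17 and -0.10 (SE 0.13 each), with 95% confidence intervals between -0.46 and 0.18. The other two probes, GE12667 and GE21661, also lay near 0. GE12667 gave -0.14, -0.23 and -0.0075 in order of the times, and GE21661 gave -0.018, -0.17 and -0.090. No probe of Gclc was called at any time, and Gclm, the modifier subunit, had a log2 fold change of 0.46 at D3 (limma adjusted p = 0.0108), under 2-fold. In Chronic, Gclm read 2.86 on replicate 45 and 1.99 to 2.49 on the others, beside 2.38 to 2.53 in Control.

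Sod2 encodes the manganese superoxide dismutase of mitochondria. Its 3 probes did not give the same picture. Probe GE20305, the brightest, had normalized intensities of 6.87 to 10.4 in Control and of 6.24 to 8.85, 6.24 to 7.72 and 5.81 to 7.39 in D3, D7 and Chronic, with overlap at each time. Its log2 fold change was -0.18, -0.27 and -0.33 (SE 0.14 each; limma adjusted p = 0.394, 0.193 and 0.119). Probe GE15571 read 4.05, 4.43 and 3.82 in Control and 2.36 to 3.08 at D3, with no overlap, and its log2 fold change was -0.60 ± 0.13 at D3 (limma adjusted p = 0.00333) and -0.59 ± 0.13 at D7 (limma adjusted p = 0.00609). Probe GE22228 read 6.88, 7.59 and 6.94 in Control and 3.94 to 4.92 at D3, and its log2 fold change was -0.66 ± 0.19 at D3 (limma adjusted p = 0.0167) and -0.63 ± 0.19 at D7 (limma adjusted p = 0.0257). Both dimmer probes thus lay lower than Control at D3 and D7 by less than 2-fold, while in Chronic they gave -0.33 and -0.36 (limma adjusted p = 0.0958 and 0.216).

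**Figure D3:**
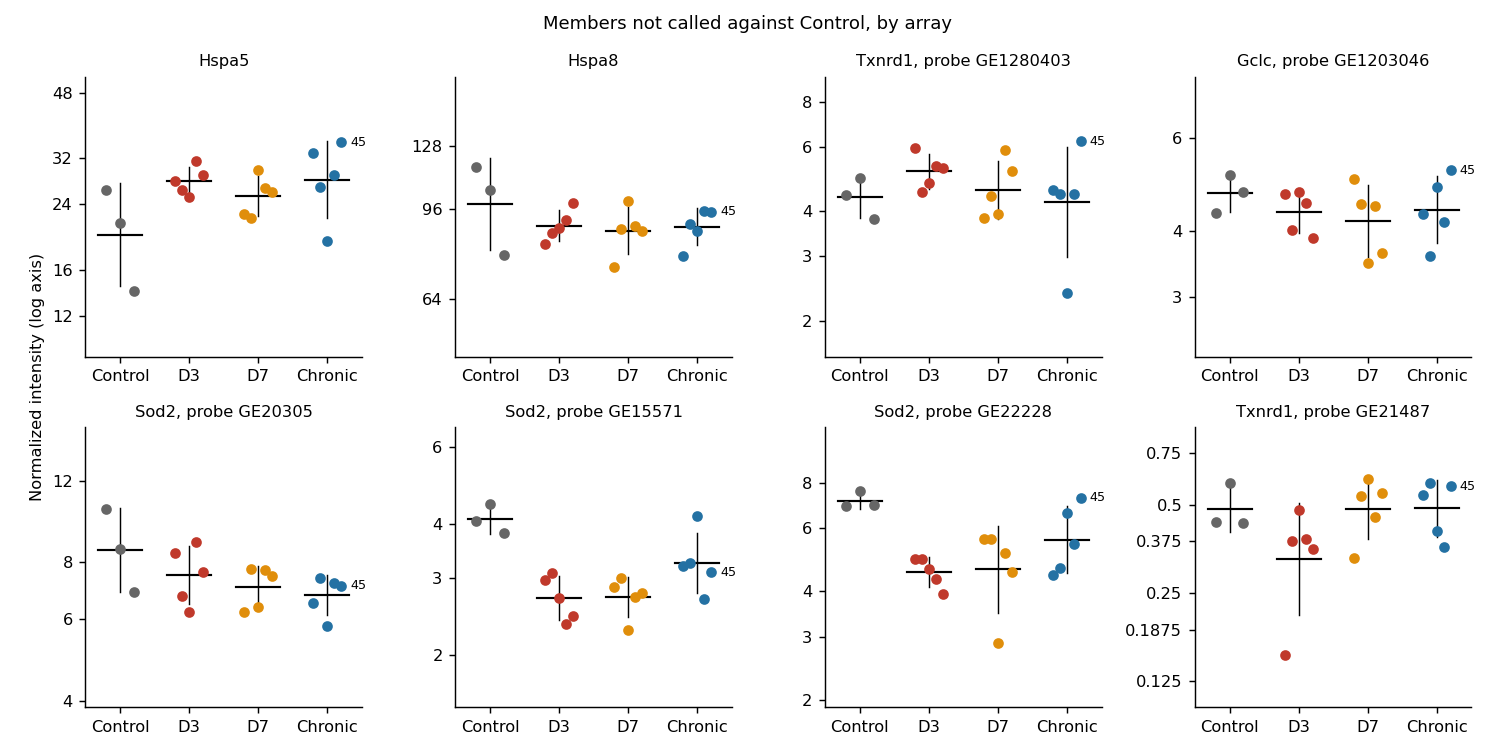
Normalized intensity (vertical axes, log scale) on each of the 18 arrays of Hspa5, Hspa8, 2 probes of Txnrd1, the brightest probe of Gclc and 3 probes of Sod2; each point is 1 rat, horizontal lines are the means of the log2 values and vertical lines span 1 SD on either side. Only for Sod2 probes GE15571 and GE22228 do the D3 and D7 arrays lie apart from Control, below it.

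The wider NRF2 list had 32 of 33 genes measured, with 4 called higher at D3 and 2 each at D7 and Chronic, beside 5.09%, 3.8% and 2.87% of all named genes. Beside Hmox1 and Nqo1 these were Maff, Osgin1 and Gsta1. Maff, a small MAF protein that pairs with NRF2, rose by 1.499 ± 0.42 on the log2 scale at D3 (limma adjusted p = 0.0140) and 1.44 ± 0.42 in Chronic (limma adjusted p = 0.0260). The D3 call was lost without Control replicate 47 (limma adjusted p = 0.0642), and the Chronic call without Control replicate 26, 36 or 47 or Chronic replicate 41 or 45 (limma adjusted p from 0.0553 to 0.0950). Osgin1, an oxidative stress-induced growth inhibitor, rose at D3 by 1.27 ± 0.26 (limma adjusted p = 0.00199), and Gsta1, a glutathione transferase, rose at D7 by 1.04 ± 0.19 (limma adjusted p = 0.00144), or 0.91 without Control replicate 47. Nfe2l2, which encodes NRF2 itself, had log2 fold changes of 0.96, 0.77 and 0.60 (limma adjusted p = 0.000187, 0.00203 and 0.0112), each under 2-fold.

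Of 26 measured antioxidant enzymes and metallothioneins, 0 were called by limma at any time, and 0 passed the methods' t-test at 2-fold. No share of all genes was counted at an unadjusted limma p under 0.05. At that threshold, the listed genes above Control numbered 5, 5 and 2 at D3, D7 and Chronic, and those below it 4, 8 and 10. Their median log2 fold change was -0.01, -0.12 and -0.19 at D3, D7 and Chronic, beside -0.10, -0.12 and -0.12 over all named genes. Gpx1, a glutathione peroxidase, had a log2 fold change of 0.89 at D3 (limma adjusted p = 0.00566), and Sod1, the cytosolic superoxide dismutase, had -0.39 both at D3 (limma adjusted p = 0.0112) and at D7 (limma adjusted p = 0.0148); both genes were picked after their values were seen.

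Of 19 measured genes of heme and iron handling, 3 rose at each time, with the member Hmox1 among them. Beside these, 5.09%, 3.8% and 2.87% of all named genes were called higher at D3, D7 and Chronic. Of the 19, 1 fell at D3 and 1 at D7, beside 0.973% and 0.487% of all named genes called lower. Lcn2, which encodes the siderophore-binding lipocalin-2, rose by 4.24 ± 0.42 on the log2 scale at D3 (limma adjusted p = 3.23e-06), 1.97 at D7 (limma adjusted p = 0.00433) and 1.77 in Chronic (limma adjusted p = 0.00952). It was lower at D7 than at D3 by 2.27 (limma adjusted p = 0.00564), and the Chronic call was lost without Control replicate 36 (limma adjusted p = 0.0528). Cp, which encodes the ferroxidase ceruloplasmin, rose by 2.28, 1.78 and 2.09 at D3, D7 and Chronic (SE 0.24 each; limma adjusted p = 6e-06, 0.000142 and 6.53e-05). Slc11a2, the divalent metal transporter DMT1, fell by 1.05 ± 0.17 at D7 (limma adjusted p = 0.000599), which was -0.98 without Control replicate 26 and -0.94 without Control replicate 36. Hp, haptoglobin, was called lower at D3 with -1.73 ± 0.56 (limma adjusted p = 0.0328), on Control intensities of 0.445 to 2.75. Without Control replicate 36 it was -0.97 (limma adjusted p = 0.271), and without D3 replicate 11, 12 or 15 its limma adjusted p was 0.0575 to 0.0634.

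The list of oxidant sources holds genes of the phagocyte NADPH oxidase, of which Cybb and Cyba encode the membrane part and Ncf1 and Ncf4 cytosolic subunits. Of its 14 measured genes, 3 were called higher at D3 and at Chronic, and 4 at D7, all of them among these subunits. Of all named genes, 5.09%, 3.8% and 2.87% were called higher at D3, D7 and Chronic. Ncf4 rose by 3.07, 2.46 and 2.77 on the log2 scale (SE 0.38 each; limma adjusted p = 3.3e-05, 0.000507 and 0.000353), with 1 of 3 Control spots flagged good. Ncf1 rose by 1.75, 1.97 and 1.84 (SE 0.33 each; limma adjusted p = 0.00127, 0.00102 and 0.00227). Cybb rose by 2.52 at D3 (limma adjusted p = 5.5e-05), 1.37 at D7 (limma adjusted p = 0.00986) and 1.03 in Chronic (limma adjusted p = 0.0438), and was lower in Chronic than at D3 (limma adjusted p = 0.00685). Its Chronic call was lost without Control replicate 26 or 36, Chronic replicate 41, 42, 44 or 45, D3 replicate 12 or 14 or D7 replicate 32 (limma adjusted p from 0.0501 to 0.165), and its D7 call without Control replicate 26 (limma adjusted p = 0.0518). Cyba was counted as called at D7 from its fitted log2 fold change of 1.82 (limma adjusted p = 0.0440). No Control spot and 2 of 5 D7 spots were flagged good, so that the measured difference is only a bound of at least 1.33-fold, which does not reach 2-fold. That call was lost without Control replicate 36 or 47, D7 replicate 32, 33 or 35 or any D3 array (limma adjusted p from 0.0517 to 0.229). Of the 12 microglia and macrophage markers, 9, 11 and 9 were called higher than Control at D3, D7 and Chronic. Unlike Cybb, 0 of the 12 were called in Chronic against D3. The part of these cells in the result was not tested.

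**Figure D4:**
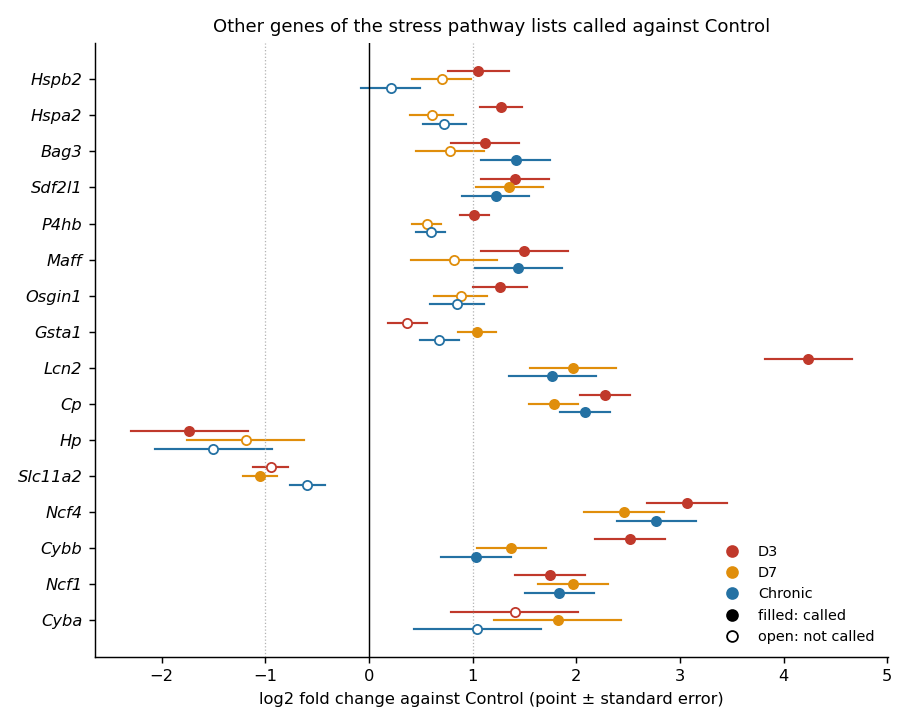
Log2 fold change against Control (horizontal axis) of the 16 genes outside the 10 members that were called at 1 or more times in the stress pathway lists, as points with standard errors at D3, D7 and Chronic; filled points were called and dotted lines mark 2-fold. Lcn2 reaches 4.24 at D3, Ncf4, Ncf1 and Cp were called at all 3 times, and Hp and Slc11a2 lie below 0. The points of Cyba are fitted values and not bounds.

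These 16 genes had 30 calls against Control over the 3 times, 28 higher and 2 lower. Of the 30, 17 were kept when any single array was left out, a share that was not counted over all genes. Against the saline array of the same time alone, fewer calls were kept, both for these genes and over all probes at each time. That fit leaves 1 control array per comparison.

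Chronic replicate 45 was set beside the other 4 Chronic arrays for all 151 measured members and pathway genes. In 3 of them (1.99%) it lay at least 2-fold above the highest of the other 4, and these were Hspb1, Hmox1 and Hspb3. Hspb3, a small heat shock protein of muscle, read 1.55 on that array, 0.103 to 0.272 on the other Chronic arrays and 0.124 to 0.300 in Control. Over the 30451 probes with a value on every array, 183 (0.601%) lay as far above the rest on that array, and on the 15 pilocarpine arrays this number ran from 39 to 220. Its median correlation with the other Chronic arrays was 0.963, within the 0.959 to 0.965 of that group. Bag3 read 26.3 there against 6.71 to 17.0 on the other Chronic arrays, and Hspa2 read 6.91 against 2.84 to 3.65, while Nqo1 was the lowest of its group. The summed microglia and macrophage markers of replicate 45 were the highest of the Chronic group at 363, beside 192 to 287 on the others. Its astrocyte sum was also the highest (521, beside 355 to 494), and its sums for oligodendrocytes (280, beside 371 to 442), endothelium (45.2, beside 48.7 to 51.2) and blood (2.99, beside 3.63 to 4.61) were the lowest. The part of these cells in its values was not tested.

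Hspb1 and Hmox1 varied together across the rats, as a description over arrays that share groups and scaling. Around the group means, the Pearson correlation of their log2 values was 0.857 (Spearman 0.736) over 18 arrays and 0.568 (Spearman 0.642) over 17 without Chronic replicate 45. Other member pairs also varied together over 18 arrays, Hspa5 with Txnrd1 (0.686) and with Sod2 (0.630) among them. Some ran against each other, as Nqo1 did with Txnrd1 (-0.533) and Hspa5 (-0.500). No pair but Hspb1 and Hmox1 was taken again without replicate 45. The genes most like Hspb1 over all 18 arrays, of 1 probe per named gene, were Timp1 (r = 0.970), Cd14 (r = 0.965) and Gadd45a (r = 0.964), and these remained the first 3 without replicate 45 (r = 0.966, 0.962 and 0.960). For Hmox1 they were Tspo (r = 0.970), Msn (r = 0.953) and Cd63 (r = 0.949). Without replicate 45, Tspo remained first (r = 0.988), and Trpt1 (r = 0.976) and C1qb (r = 0.971) followed. For Nqo1 they were Kcne4 (r = 0.907), Ddr2 (r = 0.904) and Cybb (r = 0.904), and without replicate 45 they were Cd24 (r = 0.951), Hspa2 (r = 0.949) and Vim (r = 0.945). Without that array Hspb1 thus kept its first 3 genes, Hmox1 kept only Tspo and Nqo1 kept none. The genes that left the first 3 stayed near the top of 11176 genes. For Hmox1, Msn ranked 10 (r = 0.960) and Cd63 ranked 17 (r = 0.957). For Nqo1, Kcne4 ranked 6 (r = 0.930), Cybb ranked 9 (r = 0.917) and Ddr2 ranked 20 (r = 0.895).

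At D7, Hmox1 was highest and lowest on the same arrays as the microglia and macrophage markers. Its highest value, 6.38, was on replicate 33, which had the highest summed marker intensity, 592, and its lowest, 2.27, on replicate 32, which had the lowest, 211. At D3 too, Hmox1 and the marker sum were both highest on replicate 11 (5.65 and 369.7) and both lowest on replicate 13 (4.25 and 300.2). In Chronic both were highest on replicate 45, while Hmox1 was lowest on replicate 43 (2.41) and the marker sum on replicate 44 (192). Hspb1 at D3 was lowest on replicate 13 (31.7), as the marker sum was, but highest on replicate 12 (67.4). At D7 Hspb1 was highest on replicate 31 (22.0) and lowest on replicate 34 (6.88), neither of which was an extreme of the marker sum. In Chronic Hspb1 was highest on replicate 45 (74.7), as the marker sum was, and lowest on replicate 43 (6.64), as Hmox1 was. Other lists shared some of these arrays. At D7 the choroid plexus and ependyma sum was also highest on replicate 33 (362) and lowest on replicate 32 (18.6). The neuronal sum was lowest on replicate 33 (95.8) and highest on replicate 32 (168). At D3 the choroid plexus and ependyma sum was highest on replicate 11 (300) but lowest on replicate 12 (17.6). The part of any of these cells in the levels of either gene was not tested.

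**Figure D5:**
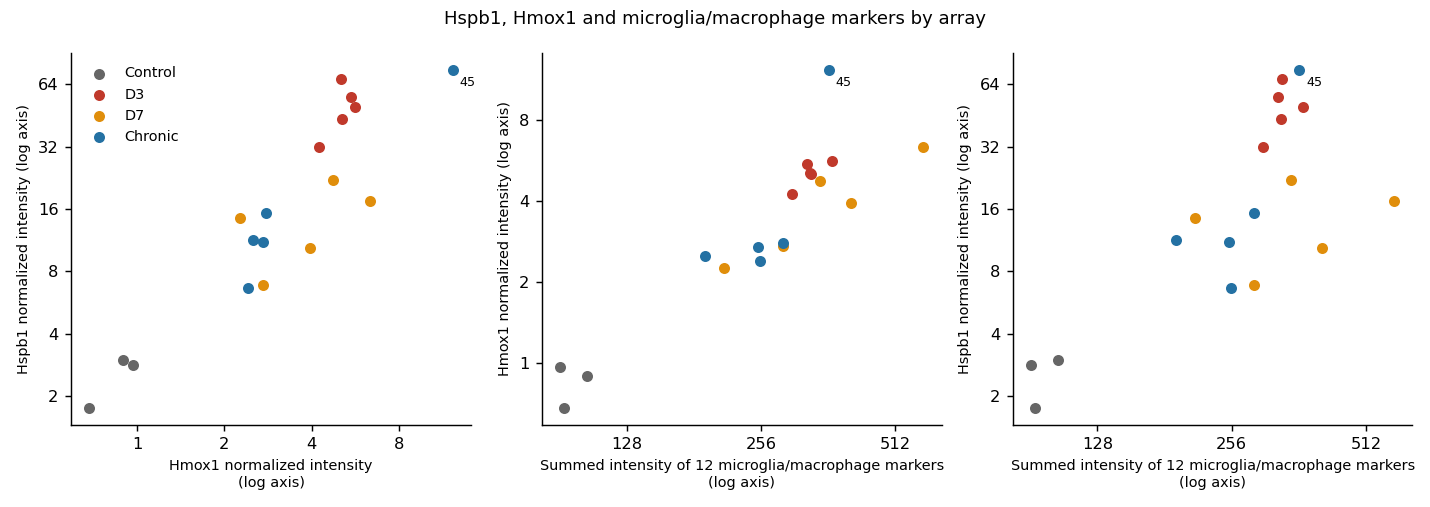
Normalized intensity of Hspb1 against Hmox1 (left), and of Hmox1 (middle) and Hspb1 (right) against the summed intensity of 12 microglia and macrophage markers, on log axes; each point is 1 array, coloured by group. Control arrays lie at the lower left of each panel, with marker sums of 90.9 to 104.6, and Chronic replicate 45 (marked 45) lies at the top of each.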

How the data were processed

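Hippocampal RNA of 18 rats was hybridized to CodeLink arrays. The authors scanned them with GenePix and used the CodeLink software. The deposited normalized intensity of each spot is its signal minus local background, divided by 1 constant per array (97.3 to 190 over the arrays), on a linear scale. The value table of the series held equal numbers. The share of good spots, 66.0% to 76.0%, and the number of arrays limit the precision.

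Spots flagged good or low were kept, other flags (0.699%) were set to missing, values were raised to percentile 1 of each array and log2 values were taken. Probes with several gene symbols (165) or no symbol (16739) entered the fit unnamed. A probe needed 3 values in each pilocarpine group and 2 in Control, which left 33800. The 4 groups were fitted in 1 model with limma 3.58.1 (eBayes with trend) in R 4.3.3, with the saline arrays of the 3 times as 1 Control group, and p-values were adjusted by Benjamini-Hochberg. The fit was tested on simulated data. In counts, a gene with several probes is represented by the brightest one (mean log2 value). Errors with log2 fold changes are standard errors. If no spot of the dimmer group was flagged good, the fold is a lower bound against the lowest good signal of each array.

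All members were described. Other pathway genes were named if called against Control, at most 4 per list by size, and the 3 genes most correlated with each called member. Hsp90ab1, Gclm, Nfe2l2, Hspb3, Gpx1 and Sod1 were named outside this rule. The members and the lists were chosen with earlier results of these data known. Counts over 8 pathway lists and 8 cell type lists are descriptions. Promoters came from RefSeq (GRCr8). Python 3.11.15 was used for tables and figures. The alternatives were quantile and percentile 75 scaling, all flags, a floor at percentile 5, a filter on dim probes, the control of the same time, no trend, array weights, 2 groups only, the methods' t-test, other probes and each array left out. Normexp background correction was not run, because no separate background column was used here, and no slide or scan date was used as a block.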

Additional observations from a re-analysis of the deposited data

Results flagged for a closer look

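Gaps in this paragraph were taken on log2 values, while the intensities in brackets are on the linear scale and would give other gaps. In Chronic, Hmox1 on replicate 45 lay far above the rest of its group, with a gap to the next array of 0.909 of the whole range (normalized intensity 12.3, the others 2.41 to 2.79). On the same array Nqo1 lay below the rest, with a gap of 0.725 of the range (1.53, the others 1.87 to 2.01). Probe GE21487 of Txnrd1 was low on D3 replicate 12, with a gap of 0.736 of the range (0.153, the others 0.354 to 0.477), where the spot was flagged low. For groups of 5 the limit is 0.71, and chance alone passes it in about 1 of 20 groups. Hspb1 on Chronic replicate 45 did not pass it. 42 groups were checked.

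Nqo1 differed between the pilocarpine groups by the limma test of the difference itself. Its log2 difference was -0.56 for D7 against D3 (limma adjusted p = 0.0455) and -0.80 for Chronic against D3 (limma adjusted p = 0.00187), each on 5 against 5 arrays and under 2-fold. In Chronic against D3 the groups did not overlap.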

How the results depend on the processing

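Against Control at D3, the members called numbered 3 in all settings but those without Control replicate 26 (4) and 36 (2). At D7 and in Chronic the 2 calls became 0 with the saline array of the same time and 0 with the methods' t-test after adjustment (and 3 at D7 without Control replicate 26). The first of these leaves 1 control array per comparison, and the cause was not tested for the second. Between D7 and D3 the count of 0 became 1, Hspb1, with array weights, with only the 2 groups in the fit and with the methods' t-test without adjustment, and ranged from 0 to 1 over single arrays left out (1 without D7 replicate 33 and without Chronic replicates 43 and 45). Between Chronic and D3 it became 1 with array weights and with the unadjusted t-test, and ranged from 0 to 1 over single arrays left out (1 without Chronic replicate 45).

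Signs turned in members near 0 whose log2 fold changes were not called. With quantile normalization Hspa8 gave 0.16, 0.074 and 0.11 at D3, D7 and Chronic, and in Chronic Txnrd1 gave 0.069 and Gclc 0.012. With percentile 75 scaling, Txnrd1 gave 0.064 and Gclc 0.00577 in Chronic. Against the saline array of the same time Gclc gave 0.00653 at D3, Txnrd1 -0.11 at D7 and 0.16 in Chronic, Hspa8 0.19 in Chronic and Nqo1 -0.023 in Chronic. Probe GE21487 of Txnrd1 gave -0.56 at D3 and 0.012 in Chronic. Over single arrays left out, Chronic against D7 ranged from -0.53 to 0.11 for Hmox1 and from -0.31 to 0.56 for Hspb1, and D7 against D3 from -0.28 to 0.060 for Cryab. Txnrd1 ranged from -0.033 to 0.16 at D7 and from -0.19 to 0.16 in Chronic. The cause was not tested.

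No paired analysis was possible because no replicate number occurs in more than 1 group. The likeness and the correlation without Chronic replicate 45 were chosen after seeing the data.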
